A study of Saccharomyces cerevisiae with 14 samples.

Results

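The *ATG* genes of *Saccharomyces cerevisiae* encode the machinery of autophagy. They were taken here as every gene whose current symbol is ATG followed by a number only. The current gene table holds 37 such symbols, and 34 of them had a named probe set on the array, 1 probe set each, among 5449 named genes. All 34 entered the tests, which covered 5443 genes. *ATG42*, *ATG44* and *ATG45* were not analysed here, and *ATG6* and *ATG24* carry the names *VPS30* and *SNX4* today and are described with the neighbouring genes of the pathway.

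Arrays came from NFRI 3236, a strain that tolerates heat, from NFRI 3155, which is sensitive to it, and from S288C, the standard laboratory strain used as the control. Cells growing exponentially in rich glucose medium (YPD) at 30°C were either left untreated or moved to 39°C for 30 min, and their polyadenylated RNA was measured on Affymetrix yeast arrays. NFRI 3236 and NFRI 3155 had 2 arrays at each temperature, and S288C had 3 at each. Each degree of thermotolerance was represented by 1 strain, and the strains have different genetic backgrounds, so a difference between them cannot be assigned to thermotolerance.

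In autophagy a cup-shaped membrane grows around a portion of the cytoplasm, closes into a double-membraned autophagosome and fuses with the vacuole, where the contents are broken down and reused. The yeast genes were found through mutants that could not survive nitrogen starvation or could not deliver an aminopeptidase to the vacuole (the Cvt pathway), and the best known trigger is loss of activity of the kinase complex TORC1. The Atg1 kinase complex starts the process, vesicles carrying Atg9 supply the first membrane, a phosphatidylinositol 3-kinase marks it, Atg2 moves lipid into it, and the ubiquitin-like proteins Atg8 and Atg12 are attached to lipid and to protein while receptors bring selected cargo.

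Signals are given as percent of the 75th percentile of all probe sets on the same array (the scaled signal), because the deposited intensities were not scaled between arrays. Their 75th percentile was 95.7 to 269 on the S288C arrays and 171 to 438 on those of the NFRI strains. A probe set was counted as above background where it was brighter than 95% of the probe sets taken as those of *Schizosaccharomyces pombe* on the same array. On each array 31 to 34 *ATG* genes were above it. Scaled signals compare arrays for 1 gene and not genes with each other. On the 3 S288C arrays at 30°C the poly-A control RNAs were above background for 0, 0 and 1 of 12 probe sets, against 8 to 12 on the other 11 arrays, so every heat change of S288C and every difference of S288C from another strain at 30°C was measured against arrays that stand apart in this respect. The part of this in the results was not tested. The array NFRI 3236 39°C replicate 2 had the highest 3′ to 5′ signal ratio of the control gene *WBP1*, 10.9, where the other arrays had up to 5.86. Of 6 heat shock genes taken as a check of the treatment, 6 rose in each strain, with a median log2 change of 4.31 in NFRI 3236, 6.09 in S288C and 4.84 in NFRI 3155. The labels name no mating type. At 30°C 1 of 3 alpha-cell marker genes was above background on all arrays of NFRI 3236, 3 of 3 on those of S288C and 1 of 3 on those of NFRI 3155. Of 4 a-cell marker genes this held for 3, 4 and 3 in the same order, and of 5 haploid marker genes for 3 in each strain. The part of mating type in the results was not tested.

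The first question was which *ATG* genes changed with the heat treatment in each strain. At 39°C 17 of 34 rose in NFRI 3236, 18 in S288C and 16 in NFRI 3155, at an adjusted p under 0.05 in limma. Over all tested genes the share that rose was 15.7% in NFRI 3236, 25.2% in S288C and 18.1% in NFRI 3155. Falls were fewer: 0, 3 and 0 *ATG* genes fell in the same order of strains, where 23.5%, 28.2% and 24.1% of all genes did. At an unadjusted p under 0.05 in limma, 1, 4 and 0 *ATG* genes were lower. The methods' t-test called 0, 3 and 0 before adjustment. In S288C it called *ATG5*, *ATG10* and *ATG12*, while *ATG27*, which fell in limma, had a t-test p of 0.0516. Shares of all genes at these unadjusted thresholds are not given here. Without the array NFRI 3236 39°C replicate 2 the number of *ATG* genes that rose in that strain was 10, and 1 fell. The median log2 change of the 34 genes was 0.77 in NFRI 3236, 0.69 in S288C and 0.72 in NFRI 3155, beside -0.10, -0.04 and -0.08 for all genes. With intensities left unscaled these medians were 1.60, 1.29 and 0.93 for the *ATG* genes and 0.74, 0.56 and 0.13 for all genes, and in S288C 22 *ATG* genes rose and 0 fell. With 16 added to each intensity 15 rose and 2 fell in NFRI 3236. The shares of all genes under these alternatives, or without the array named above, are not given here. The log2 change of 28 of 34 *ATG* genes lay above the median of all genes in NFRI 3236, of 26 in S288C and of 32 in NFRI 3155.

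**Figure D1:**
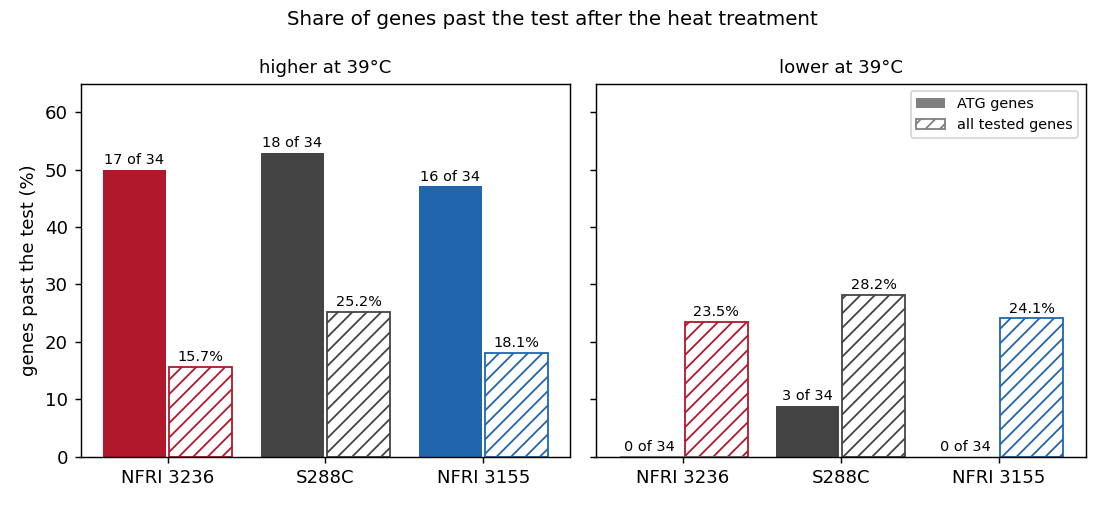
Percent of genes past the test (limma, adjusted p under 0.05) at 39°C against 30°C in each strain, higher on the left and lower on the right, for the 34 *ATG* genes (filled bars) and for all 5443 tested genes (hatched bars). The *ATG* bars stand at 17, 18 and 16 genes for rises and at 0, 3 and 0 for falls.

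*ATG1*, *ATG2*, *ATG8*, *ATG9*, *ATG19*, *ATG22*, *ATG23*, *ATG31*, *ATG33*, *ATG34*, *ATG36* and *ATG40* rose in all 3 strains. They are 12 of 34 genes, where 9.06% of all genes rose in all 3. *ATG3*, *ATG4*, *ATG7* and *ATG41* rose in 2 strains, and *ATG13*, *ATG14*, *ATG16*, *ATG17*, *ATG18*, *ATG21* and *ATG38* in 1. *ATG10*, *ATG12* and *ATG27* fell in S288C and passed the test in no other strain. No change passed the test for *ATG5*, *ATG11*, *ATG15*, *ATG20*, *ATG26*, *ATG29*, *ATG32* and *ATG39*, which are 8 genes, beside 30.1% of all genes. No *ATG* gene fell in all 3 strains, while 13.7% of all genes did. Every array at 39°C lay above every array at 30°C for 23 *ATG* genes in NFRI 3236, 19 in S288C and 26 in NFRI 3155, where this held for 30.8%, 30.4% and 33.7% of all genes. Every array at 39°C lay below every array at 30°C for 2, 5 and 1 *ATG* genes, beside 39.4%, 33.9% and 39.2% of all genes. Of the 12 genes, *ATG1*, *ATG9*, *ATG19*, *ATG31*, *ATG33* and *ATG40* passed the test in all 3 strains under each of 22 alternative settings, and *ATG34* under the 21 in which it was tested. These settings leave out the methods' t-test, which after Benjamini-Hochberg adjustment called no *ATG* gene in NFRI 3236 or NFRI 3155. *ATG23* was the weakest of the 12: its folds were 1.65, 1.58 and 1.64 with adjusted p of 0.0479, 0.0210 and 0.0476. It kept all 3 calls when S288C 39°C replicate 1 or NFRI 3155 39°C replicate 2 was left out but not when any other array was. It also left the 12 on unscaled intensities, under quantile normalization, with 16 added to each intensity, under other moderation and with the replicate block.

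**Figure D2:**
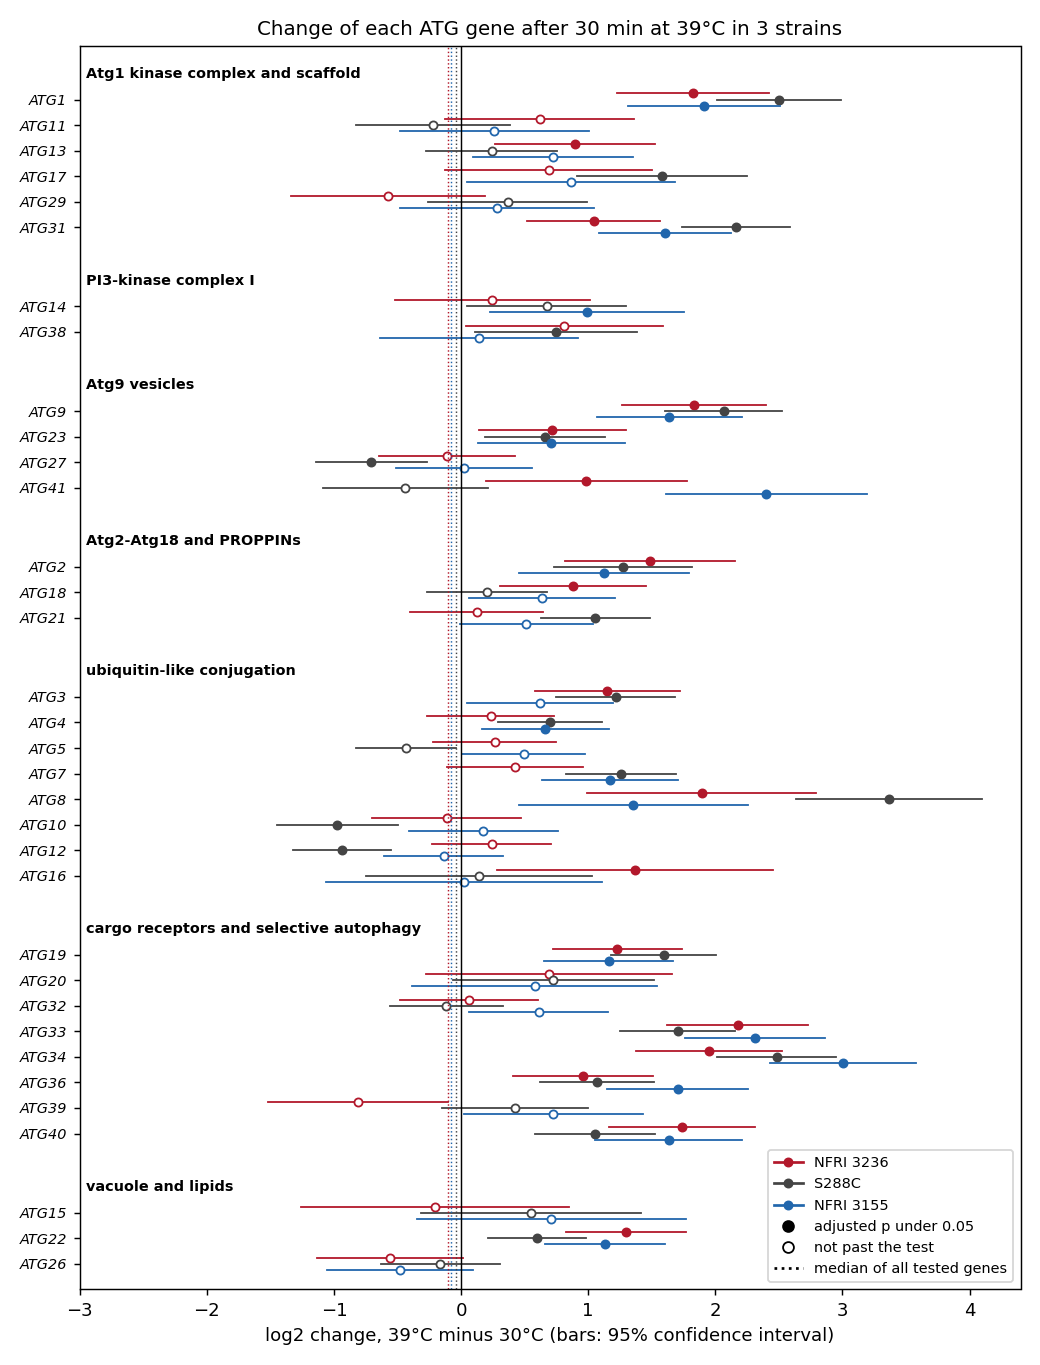
Log2 change at 39°C against 30°C (horizontal axis) of each of the 34 *ATG* genes, grouped by role, in NFRI 3236 (red), S288C (grey) and NFRI 3155 (blue), with 95% confidence intervals from limma. Filled points passed the test, dotted lines are the medians of all tested genes at -0.10, -0.04 and -0.08, and the filled point of *ATG16* comes from arrays on which it was not above background.

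The Atg1 kinase complex and its scaffolds start autophagosome formation. *ATG1* encodes the protein kinase of this complex. Its scaled signal was 9.31 and 8.93 in NFRI 3236 at 30°C and 32.9 and 31.7 at 39°C. In S288C it was 7.88, 11.4 and 7.10 at 30°C and 44.4, 52.3 and 49.8 at 39°C. In NFRI 3155 the values were 4.61 and 6.87, then 17.3 and 25.9. No array at 39°C overlapped with one at 30°C in any strain. The rise was 3.54-fold in NFRI 3236 (log2 1.83 ± 0.28 SE, adjusted p = 2.56e-04), 5.65-fold in S288C (2.50 ± 0.23, adjusted p = 1.1e-06) and 3.76-fold in NFRI 3155 (1.91 ± 0.28, adjusted p = 1.17e-04).

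*ATG31* encodes a subunit of the Atg17-Atg29-Atg31 scaffold, on which the complex assembles in starved cells. Its scaled signal went from 36.7 and 40.7 to 76.3 and 83.1 in NFRI 3236. In S288C it went from 27.9, 27.0 and 21.0 to 120, 109 and 108, and in NFRI 3155 from 29.7 and 40.8 to 127 and 88.0. The S288C arrays were the lowest at 30°C and reached the same range as NFRI 3155 at 39°C, which gave rises of 2.06-fold, 4.48-fold and 3.04-fold in NFRI 3236, S288C and NFRI 3155 (adjusted p = 0.00418, 1.12e-06 and 1.54e-04). The calls of the other subunits differed. *ATG17* rose in S288C, 2.99-fold (adjusted p = 7.73e-04), with 1.61-fold and 1.82-fold in NFRI 3236 and NFRI 3155 that did not pass. *ATG29* had 0.671-fold, 1.29-fold and 1.22-fold in NFRI 3236, S288C and NFRI 3155, and none passed. Its gene overlaps *SET6* in the annotation, and signals of the 2 were not separated. *ATG13*, the regulatory subunit that TORC1 phosphorylates, rose in NFRI 3236 by 1.87-fold (adjusted p = 0.0260), a call lost without NFRI 3236 30°C replicate 1 (adjusted p = 0.195), 39°C replicate 1 (adjusted p = 0.107) or 39°C replicate 2 (adjusted p = 0.0613). *ATG11*, the scaffold of selective autophagy in growing cells, did not pass in any strain, with log2 changes of 0.62, -0.22 and 0.26 in NFRI 3236, S288C and NFRI 3155.

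The phosphatidylinositol 3-kinase complex I makes the lipid that recruits later factors. *ATG14*, which brings this complex to the site of autophagosome formation, rose in NFRI 3155 by 1.99-fold (adjusted p = 0.0381), and the call was lost without NFRI 3155 30°C replicate 1 (adjusted p = 0.182), 30°C replicate 2 (adjusted p = 0.0723) or 39°C replicate 1 (adjusted p = 0.276). The *ATG14* call was also lost on unscaled intensities and under quantile normalization. *ATG38*, a linker subunit of the complex, had scaled signals of 8.49 and 3.69 at 30°C and 9.27 and 10.4 at 39°C in NFRI 3236. In S288C it had 13.3, 11.4 and 12.8 at 30°C and 24.2, 19.5 and 19.5 at 39°C, and in NFRI 3155 8.93 and 10.9, then 15.1 and 7.85. The value of 3.69 was not above background. *ATG38* rose in S288C by 1.68-fold (adjusted p = 0.0464). Leaving out S288C 39°C replicate 2 or 3 lost this call (adjusted p = 0.0706 and 0.0708), as did leaving out any of the other S288C arrays (adjusted p = 0.0781 to 0.129), either 39°C array of NFRI 3236 (adjusted p = 0.0550) or either 30°C array of NFRI 3155 (adjusted p = 0.0562).

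Atg9 is a membrane protein that scrambles lipids and travels on small vesicles, and Atg23, Atg27 and Atg41 act in its traffic. *ATG9* had scaled signals of 26.0 and 23.5 at 30°C and 82.0 and 94.4 at 39°C in NFRI 3236. In S288C they were 12.3, 8.99 and 14.5, then 48.3, 56.5 and 43.0, and in NFRI 3155 20.2 and 30.3, then 75.7 and 78.6. S288C was below both NFRI strains at each temperature on every array. The folds were 3.55 (log2 1.83 ± 0.26 SE, adjusted p = 1.61e-04), 4.18 (2.06 ± 0.21, adjusted p = 3.69e-06) and 3.12 (1.64 ± 0.26, adjusted p = 2.56e-04) in NFRI 3236, S288C and NFRI 3155. *ATG27* fell in S288C to 0.613-fold (adjusted p = 0.0101), a call lost without S288C 30°C replicate 1 (adjusted p = 0.0506), and its log2 changes in NFRI 3236 and NFRI 3155 were -0.11 and 0.03.

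Atg2 bridges the endoplasmic reticulum and the growing membrane, and Atg18 and Atg21 are propeller-shaped proteins that bind the lipid made by the kinase. *ATG2* rose 2.79-fold, 2.42-fold and 2.18-fold in NFRI 3236, S288C and NFRI 3155 (adjusted p = 0.00222, 8.77e-04 and 0.0103). Its call in NFRI 3155 was lost without NFRI 3155 30°C replicate 2 (adjusted p = 0.115) or 39°C replicate 2 (adjusted p = 0.110). *ATG18* rose in NFRI 3236 by 1.84-fold (adjusted p = 0.0190), which did not hold without NFRI 3236 30°C replicate 2 (adjusted p = 0.121) or 39°C replicate 2 (adjusted p = 0.111). *ATG21*, whose product is needed in the Cvt pathway, rose in S288C by 2.08-fold (adjusted p = 5.61e-04).

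The 8 conjugation genes split. *ATG8* encodes the ubiquitin-like protein that is joined to the lipid phosphatidylethanolamine and stays on the autophagosome, and its amount sets the size of autophagosomes. Its scaled signal went from 72.4 and 73.5 to 203 and 361 in NFRI 3236. In S288C it went from 36.1, 47.0 and 67.0 to 652, 418 and 459, and in NFRI 3155 from 82.2 and 90.7 to 352 and 138. S288C had the lowest arrays at 30°C and the highest at 39°C, and the replicates at 39°C lay further apart in the NFRI strains than those at 30°C. The rise was 10.3-fold in S288C (log2 3.37 ± 0.34 SE, adjusted p = 2.87e-06), 3.71-fold in NFRI 3236 (1.89 ± 0.42, adjusted p = 0.00308) and 2.56-fold in NFRI 3155 (1.35 ± 0.42, adjusted p = 0.0185). The NFRI 3155 call was lost without NFRI 3155 30°C replicate 1 (adjusted p = 0.0887), 30°C replicate 2 (adjusted p = 0.0583) or 39°C replicate 1 (adjusted p = 0.209).

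Of the enzymes that handle Atg8, *ATG7*, the activating enzyme shared with Atg12, rose in S288C (2.39-fold, adjusted p = 1.64e-04) and in NFRI 3155 (2.25-fold, adjusted p = 0.00194). *ATG3*, the conjugating enzyme of Atg8, rose in NFRI 3236 (2.22-fold, adjusted p = 0.00413) and in S288C (2.32-fold, adjusted p = 3.94e-04), the former with an adjusted p of 0.0502 without NFRI 3236 39°C replicate 2. *ATG4*, the protease that trims Atg8 and frees it again, rose in S288C (1.62-fold, adjusted p = 0.00718) and in NFRI 3155 (1.58-fold, adjusted p = 0.0343). The NFRI 3155 call was lost without any of the 4 arrays of that strain (log2 change 0.565 to 0.761). It was also lost on unscaled intensities, under quantile normalization, under other moderation and with the replicate block. With 16 added to each intensity neither *ATG4* call passed.

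In the Atg12 arm 2 genes fell, both in S288C. *ATG12*, the second ubiquitin-like protein, went from 94.5, 83.5 and 78.8 to 43.1, 49.4 and 41.6 in S288C, a fall to 0.522-fold (log2 -0.94 ± 0.18 SE, adjusted p = 6.13e-04). It had 50.8 and 46.5, then 58.3 and 56.5 in NFRI 3236, and 52.7 and 50.9, then 57.3 and 38.8 in NFRI 3155. The S288C arrays at 39°C thus came down below the NFRI 3155 arrays at 30°C and lay between its arrays at 39°C. *ATG10*, the conjugating enzyme of Atg12, fell in S288C from 32.2, 39.1 and 38.4 to 15.0, 24.0 and 17.8, to 0.509-fold (log2 -0.97 ± 0.22 SE, adjusted p = 0.00231). In NFRI 3236 it had 37.3 and 37.3, then 30.2 and 39.3, and in NFRI 3155 13.2 and 15.5, then 20.1 and 13.0. *ATG5*, the protein to which Atg12 is attached, had 215 and 199, then 289 and 213 in NFRI 3236, 157, 191 and 171, then 115, 140 and 129 in S288C, and 142 and 137, then 228 and 169 in NFRI 3155. None of its heat changes passed in limma, although the S288C arrays at 39°C were all below those at 30°C. The methods' t-test called this fall in S288C (adjusted p = 0.0497). With unscaled intensities the falls of *ATG10* and *ATG12* in S288C no longer passed the test, nor did that of *ATG27*.

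*ATG16*, which encodes the partner that holds Atg12-Atg5 together, was above background on 2 arrays, both of S288C at 39°C. Its scaled signals there were 2.57, 5.91 and 3.35, and at 30°C 4.66, 2.98 and 2.73. NFRI 3236 had 0.586 and 1.80, then 3.19 and 2.21, and NFRI 3155 had 1.82 and 3.17, then 2.77 and 2.14. The heat change in NFRI 3236 passed the test (adjusted p = 0.0451) although no array of that strain was above background, so no fold is given, and the sign reversed with 16 added to each intensity (log2 -0.31).

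**Figure D3:**
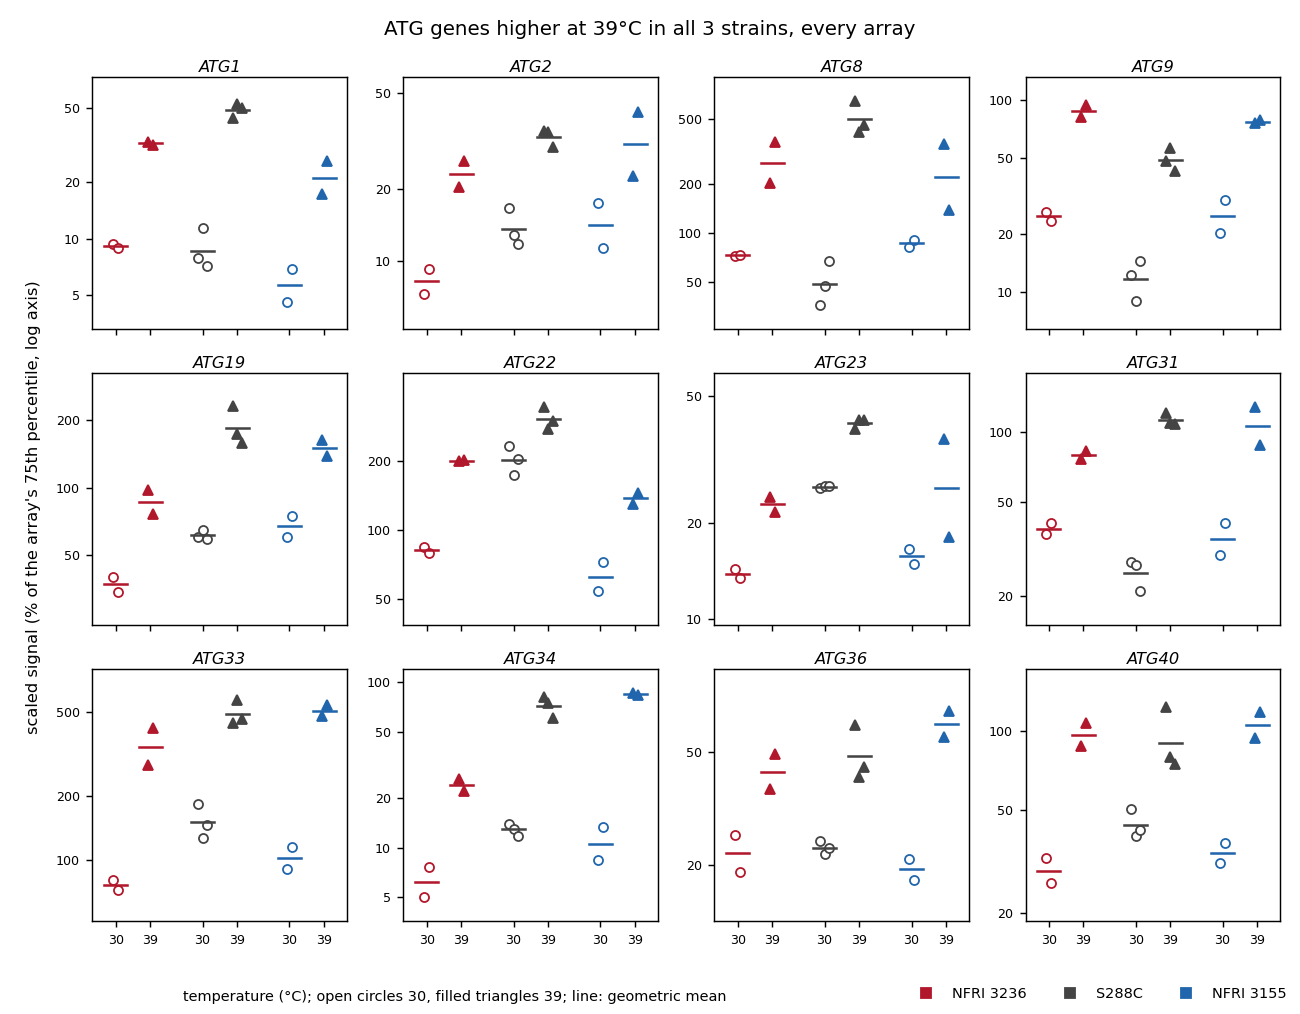
Scaled signal on a log axis (percent of the array's 75th percentile) on each of the 14 arrays for the 12 *ATG* genes that rose in all 3 strains, with open circles for 30°C, triangles for 39°C and a line at the geometric mean of each group. In every panel the arrays of a strain at 39°C lie above its arrays at 30°C, as for *ATG1* in NFRI 3155 with 4.61 and 6.87 against 17.3 and 25.9.

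Cargo receptors and other genes of selective autophagy held 5 of 8 measured members that rose in each strain. *ATG34* encodes the receptor that carries alpha-mannosidase to the vacuole in starved cells. Its scaled signal was 5.02 and 7.60 in NFRI 3236 at 30°C, the first value not above background, and 26.0 and 22.0 at 39°C. In S288C it went from 13.9, 13.0 and 11.8 to 81.1, 75.1 and 61.0, and in NFRI 3155 from 8.38 and 13.3 to 85.4 and 83.4. At 39°C the NFRI 3236 arrays stayed below all arrays of the other strains. The rise was 3.87-fold in NFRI 3236 (log2 1.95 ± 0.27 SE, adjusted p = 1.08e-04), 5.59-fold in S288C (2.48 ± 0.22, adjusted p = 7.98e-07) and 8.01-fold in NFRI 3155 (3.00 ± 0.27, adjusted p = 2.03e-06). *ATG19*, its neighbour on the chromosome and relative, encodes the receptor of the Cvt pathway. It went from 40.0 and 34.0 to 97.6 and 76.4 in NFRI 3236, from 60.3, 64.6 and 59.1 to 232, 173 and 157 in S288C, and from 60.3 and 74.5 to 163 and 138 in NFRI 3155. These are rises of 2.34-fold, 3.02-fold and 2.24-fold (adjusted p = 0.00125, 1.42e-05 and 0.00143). Whether probes of *ATG19* and *ATG34* read each other's RNA was not tested.

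*ATG33* encodes a protein of the mitochondrial outer membrane that takes part in mitophagy, the removal of mitochondria. Its scaled signals were 80.0 and 71.8, then 279 and 420 in NFRI 3236. They were 183, 126 and 146, then 444, 567 and 463 in S288C, and 90.3 and 115, then 477 and 538 in NFRI 3155. S288C was the highest strain at 30°C, and at 39°C its range met that of NFRI 3155. The folds were 4.52 (log2 2.17 ± 0.26 SE, adjusted p = 3.72e-05) in NFRI 3236, 3.26 (1.70 ± 0.21, adjusted p = 1.66e-05) in S288C and 4.97 (2.31 ± 0.26, adjusted p = 1.36e-05) in NFRI 3155. *ATG32*, the receptor of mitophagy itself, did not pass in any strain, with log2 changes of 0.06, -0.12 and 0.61 in NFRI 3236, S288C and NFRI 3155 (95% confidence intervals -0.48 to 0.61, -0.56 to 0.33 and 0.07 to 1.15).

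*ATG40* encodes a receptor for parts of the endoplasmic reticulum. Its scaled signals went from 32.5 and 26.1 to 87.9 and 107 in NFRI 3236, from 50.1, 39.5 and 41.6 to 124, 79.5 and 74.8 in S288C, and from 31.2 and 37.2 to 94.4 and 118 in NFRI 3155. At 39°C the 3 strains overlapped, and the rise was 3.34-fold in NFRI 3236 (adjusted p = 2.75e-04). S288C rose 2.08-fold (adjusted p = 0.00119) and NFRI 3155 rose 3.10-fold (adjusted p = 3.01e-04). *ATG36*, the receptor for peroxisomes, rose 1.94-fold, 2.10-fold and 3.25-fold (adjusted p = 0.00980, 7.80e-04 and 1.55e-04), the first of these not passing without NFRI 3236 30°C replicate 2 (adjusted p = 0.0934) or 39°C replicate 2 (adjusted p = 0.0809). *ATG39*, the receptor for the nuclear envelope, passed in no strain. It had 4.85 and 3.76, neither above background, then 1.94 and 3.07, of which the second was above background, in NFRI 3236. In S288C it had 10.1, 6.52 and 8.49, then 14.6, 11.3 and 8.24, and in NFRI 3155 4.62 and 5.85, then 10.3 and 7.17. *ATG20*, a sorting nexin that works with Snx4, had log2 changes of 0.69, 0.73 and 0.58 in NFRI 3236, S288C and NFRI 3155, none past the test.

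At the vacuole, Atg22 exports amino acids made by breakdown, and Atg15 is the lipase that opens the autophagic body. *ATG22* had scaled signals of 83.7 and 79.5, then 200 and 201 in NFRI 3236. In S288C they were 231, 173 and 203, then 344, 274 and 298, and in NFRI 3155 53.8 and 72.6, then 129 and 145. S288C at 30°C stood where NFRI 3236 stood at 39°C, and the rises were 2.46-fold, 1.51-fold and 2.19-fold in NFRI 3236, S288C and NFRI 3155 (adjusted p = 5.38e-04, 0.0127 and 0.00105), that of S288C not passing without S288C 30°C replicate 2 (adjusted p = 0.0637). *ATG15* had 19.5 and 25.8, then 36.3 and 10.4 in NFRI 3236, 5.41, 6.23 and 9.90, then 12.9, 7.95 and 10.2 in S288C, and 24.6 and 29.4, then 32.8 and 58.9 in NFRI 3155. The value of 5.41 was not above background, and none of its heat changes passed. *ATG26*, a sterol glucosyltransferase with a part in peroxisome removal in the yeast Komagataella, had log2 changes of -0.56, -0.16 and -0.48 in NFRI 3236, S288C and NFRI 3155, none past the test.

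The next question was whether the strains responded differently, tested as the difference of the heat changes. Of 34 *ATG* genes 2 differed between NFRI 3236 and S288C, where 10.1% of all genes did, 4 between S288C and NFRI 3155 (16.5%), and 0 between NFRI 3236 and NFRI 3155 (2.5%). At the adjusted threshold no share of *ATG* genes exceeded that of all genes. At an unadjusted p under 0.05 in limma the last comparison had 3 *ATG* genes. The share of all genes at that threshold is not given here, so this count is not set against the 2.5%.

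*ATG41*, which encodes a binding partner of Atg9, had the largest of these 6 differences. Its scaled signal was 19.3 and 31.7 in NFRI 3155 at 30°C and 99.9 and 172 at 39°C, a rise of 5.29-fold (log2 2.40 ± 0.37 SE, adjusted p = 1.77e-04). In S288C it was 274, 261 and 349 at 30°C and 257, 183 and 214 at 39°C (0.739-fold, adjusted p = 0.237), and in NFRI 3236 231 and 189, then 287 and 598 (1.98-fold, adjusted p = 0.0481). The heated NFRI 3155 arrays were still below each array of the other strains at either temperature. The change in S288C minus that in NFRI 3155 was -2.84 ± 0.47 SE on the log2 scale (adjusted p = 0.00249), and it passed under each of 22 alternative settings. NFRI 3236 minus NFRI 3155 was -1.42 (95% confidence interval -2.54 to -0.30, adjusted p = 0.190), and NFRI 3236 minus S288C was 1.42 (0.40 to 2.44, adjusted p = 0.0741), neither past the test. The rise in NFRI 3236 was lost without NFRI 3236 30°C replicate 1 (adjusted p = 0.0902), 30°C replicate 2 (adjusted p = 0.200) or 39°C replicate 2 (adjusted p = 0.408), and also without S288C 30°C replicate 1, 2 or 3 or 39°C replicate 2 or 3 (adjusted p = 0.0545 to 0.0607).

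*ATG8* rose more in S288C than in NFRI 3155, by 2.01 ± 0.54 SE on the log2 scale (adjusted p = 0.0236), and this call was lost without S288C 30°C replicate 1 (adjusted p = 0.0574), NFRI 3155 30°C replicate 1 (adjusted p = 0.0641), 30°C replicate 2 (adjusted p = 0.0828) or 39°C replicate 2 (adjusted p = 0.0876). NFRI 3236 minus S288C was -1.48 for *ATG8* (95% confidence interval -2.64 to -0.32, adjusted p = 0.0958). *ATG10* and *ATG5* had log2 changes of -0.97 and -0.43 in S288C and of 0.18 and 0.49 in NFRI 3155, a difference of -1.15 and -0.92 (adjusted p = 0.0405 and 0.0450). *ATG12* changed more upward in NFRI 3236 than in S288C, by 1.18 (adjusted p = 0.0212), and *ATG31* less, by -1.12 (adjusted p = 0.0378). The *ATG12* call was lost without NFRI 3236 30°C replicate 2, 39°C replicate 2 or S288C 30°C replicate 1 (adjusted p = 0.0507 to 0.0854). Leaving out any array of NFRI 3236 or S288C lost the *ATG31* call. Without an S288C array the adjusted p was 0.0556 to 0.0879, and without an NFRI 3236 array the difference was -1.19 to -1.05. For *ATG10* and *ATG5* the call went with most single arrays left out, with adjusted p up to 0.141 and 0.136. With unscaled intensities *ATG8* and *ATG41* kept their call between S288C and NFRI 3155 (adjusted p = 0.0470 and 0.0325), and the other 4 differences did not pass.

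**Figure D4:**
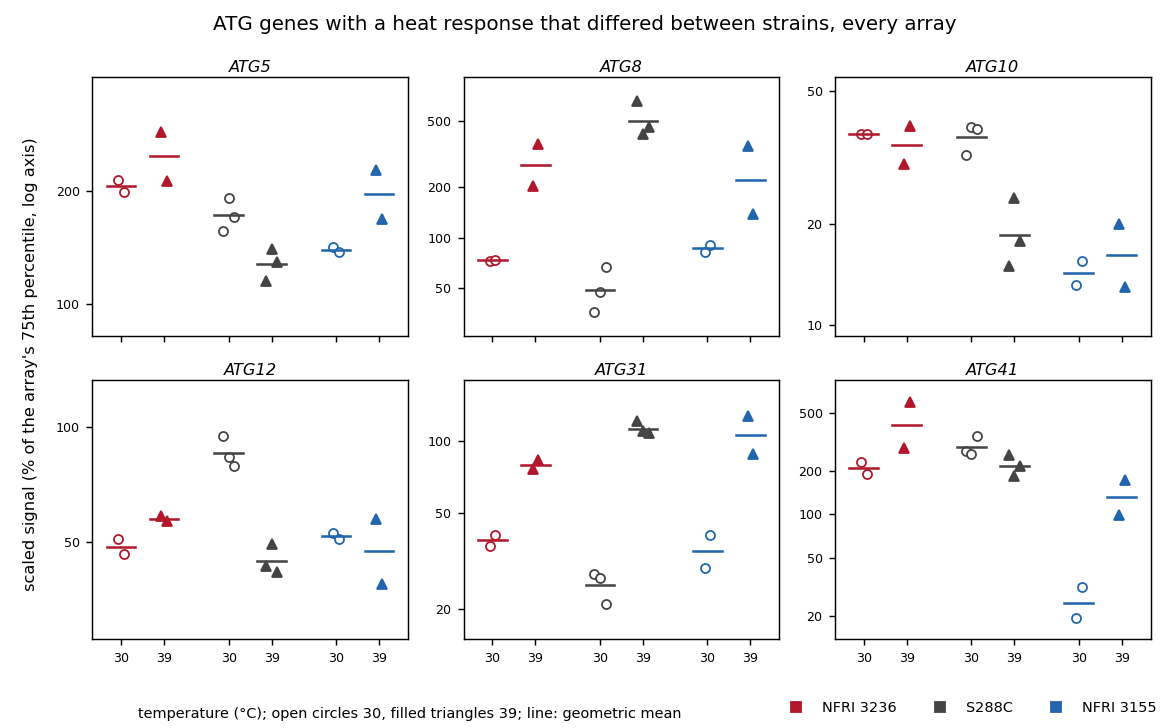
Scaled signal on a log axis (percent of the array's 75th percentile) on each of the 14 arrays for the 6 *ATG* genes whose heat response differed between strains, with open circles for 30°C, triangles for 39°C and a line at the geometric mean. *ATG41* starts at 19.3 and 31.7 in NFRI 3155 and at 189 or above in the other strains, and *ATG8* spans the widest range in S288C, from 36.1 to 652.

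Levels of the *ATG* genes in untreated cells were compared next. Sequence differences between the strains under the probes cannot be told apart from differences in level here. At 30°C 12 of 34 *ATG* genes differed between NFRI 3236 and S288C (3 higher and 9 lower in NFRI 3236), 8 between S288C and NFRI 3155 (5 higher and 3 lower in S288C) and 3 between NFRI 3236 and NFRI 3155 (2 higher and 1 lower in NFRI 3236). Of all genes 29.2% differed in the first comparison (15.4% higher and 13.8% lower), 30.2% in the second (13.9% and 16.3%) and 8.91% in the last (4.45% and 4.46%). These splits turned on the scaling. With unscaled intensities, where the median of all genes shifted by 0.93, -1.14 and -0.19 in the same order of comparisons, they were 12 higher and 0 lower, 1 higher and 16 lower, and 1 higher and 0 lower. With 16 added to each intensity the first was 0 higher and 11 lower and the second 10 higher and 1 lower. Quantile normalization gave 4 higher and 4 lower between S288C and NFRI 3155, and 2 higher and 0 lower between the NFRI strains. For these alternatives the shares of all genes are not given here. The first count was 5 without NFRI 3236 30°C replicate 1 and 4 without replicate 2, the second was 4 without NFRI 3155 30°C replicate 2, and the last was 1 without NFRI 3155 30°C replicate 1.

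*ATG41* again stood out. With the values given above it was 11.8-fold higher in S288C than in NFRI 3155 (log2 3.56 ± 0.34 SE, adjusted p = 6.38e-06) and 8.45-fold higher in NFRI 3236 than in NFRI 3155 (3.08 ± 0.37, adjusted p = 1.19e-04), and both calls held under all settings tried, with log2 differences of 2.45 and 2.87 on unscaled intensities. *ATG32* was lower in S288C than in NFRI 3155, 0.463-fold (adjusted p = 0.00303), a call that also held under all settings. Its values are given in full because the call held, which is a choice made after they were seen. Its scaled signals were 30.4, 19.3 and 27.7 in S288C, 57.0 and 52.4 in NFRI 3155 and 40.2 and 35.3 in NFRI 3236 at 30°C, with no overlap between the strains.

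*ATG22* was 3.22-fold higher in S288C than in NFRI 3155 (adjusted p = 4.5e-05) and NFRI 3236 had 0.406-fold the level of S288C (adjusted p = 4.47e-04), and neither passed on unscaled intensities (log2 0.58 and -0.41). *ATG15* was 3.23-fold higher in NFRI 3236 than in S288C (adjusted p = 0.0133), and S288C had 0.258-fold the level of NFRI 3155 (adjusted p = 0.00543). These calls were lost without NFRI 3236 30°C replicate 2 (adjusted p = 0.102) and NFRI 3155 30°C replicate 2 (adjusted p = 0.0532). Both were also lost with 16 added to each intensity. *ATG10* was 2.55-fold higher in S288C and 2.61-fold higher in NFRI 3236 than in NFRI 3155 (adjusted p = 0.00132 and 0.00493), and neither passed on unscaled intensities. The second of these was also lost without NFRI 3155 30°C replicate 1 (adjusted p = 0.0576). *ATG9* was 2.12-fold higher in NFRI 3236 than in S288C (adjusted p = 0.00516), a call lost without NFRI 3236 30°C replicate 1 (adjusted p = 0.0503), and S288C had 0.472-fold the level of NFRI 3155 (adjusted p = 0.00455), lost without NFRI 3155 30°C replicate 2 (adjusted p = 0.0887). With 16 added to each intensity neither of these *ATG9* differences passed. *ATG19* had 0.550-fold the level of NFRI 3155 in NFRI 3236 (adjusted p = 0.0361), and 8 of the 14 arrays each ended this call when left out, with the largest adjusted p, 0.278, without NFRI 3155 30°C replicate 2 and the next, 0.194, without NFRI 3236 30°C replicate 2. Further members below S288C in NFRI 3236 were *ATG12*, *ATG19*, *ATG23*, *ATG33*, *ATG34* and *ATG38*, with 0.569-fold for *ATG12* and 0.480-fold for *ATG34*. On unscaled intensities none of these 6 passed. The calls of *ATG12* (adjusted p = 0.0748), *ATG33* (adjusted p = 0.0659) and *ATG38* (adjusted p = 0.283) were lost without NFRI 3236 30°C replicate 2, and that of *ATG34* without replicate 1 (adjusted p = 0.0944). Those of *ATG19* and *ATG23* were lost without either array (adjusted p = 0.0601 to 0.159), and that of *ATG19* also without S288C 30°C replicate 2 (adjusted p = 0.0656). *ATG34* and *ATG38* were each above background on 1 of the 2 NFRI 3236 arrays. *ATG39* was at least 1.66-fold lower in NFRI 3236 than in S288C (adjusted p = 0.0298), where the level of NFRI 3236 is set at the background because none of its arrays was above it. This call was lost without NFRI 3236 30°C replicate 1 or 2 or S288C 30°C replicate 1 or 3 (adjusted p = 0.0652 to 0.201). *ATG16* differed between NFRI 3236 and S288C (adjusted p = 0.0142) with no array above background, so no fold is given. *ATG31* was higher in NFRI 3236 than in S288C, a call that held under 8 of 22 alternative settings. *ATG12* and *ATG23* were higher in S288C than in NFRI 3155, and these calls held under 18 and 11 of 22.

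**Figure D5:**
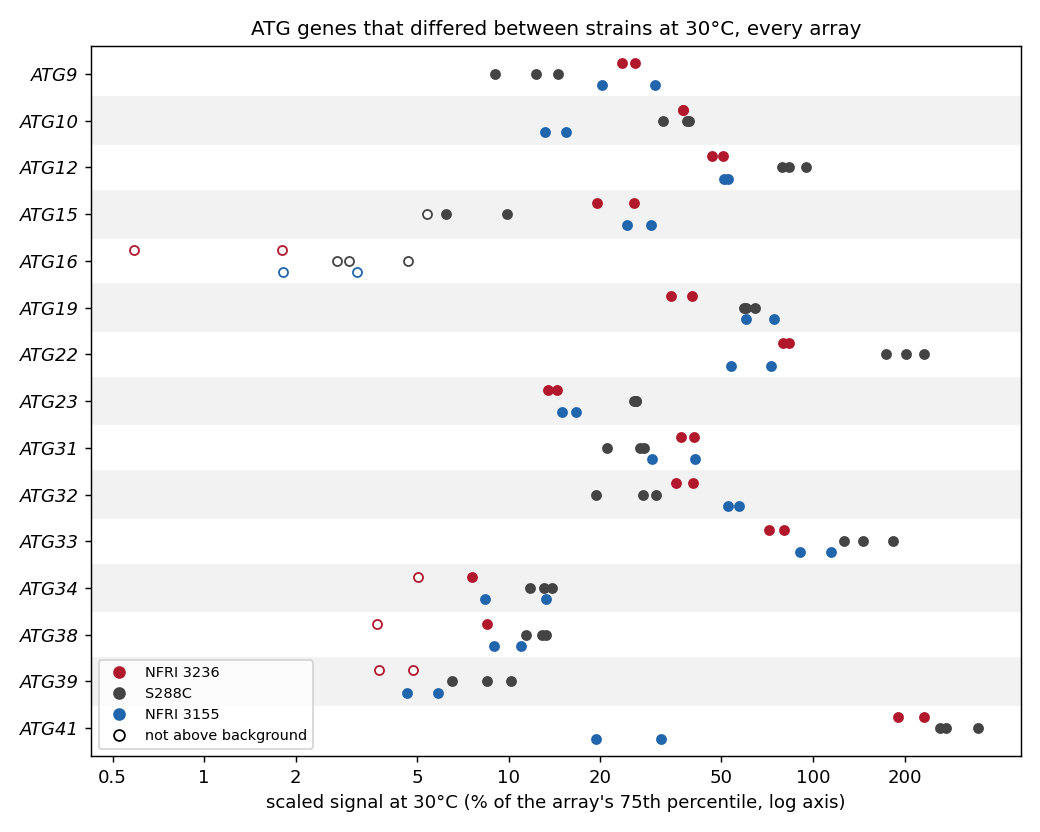
Scaled signal at 30°C on a log axis (percent of the array's 75th percentile) of the *ATG* genes that differed between any strains, with a point for each array in NFRI 3236 (red), S288C (grey) and NFRI 3155 (blue) and open points where the array was not above background. *ATG41* shows NFRI 3155 at 19.3 and 31.7 apart from both other strains, and *ATG32* shows the 3 strains without overlap.

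After the treatment 13 *ATG* genes differed between NFRI 3236 and S288C (5 higher and 8 lower in NFRI 3236), 13 between S288C and NFRI 3155 (7 higher and 6 lower in S288C) and 7 between NFRI 3236 and NFRI 3155 (2 higher and 5 lower in NFRI 3236), where 28.0% of all genes (13.1% higher and 14.9% lower), 44.7% (23.1% and 21.6%) and 20.4% (9.65% and 10.7%) differed. On unscaled intensities the splits were 16 higher and 1 lower, 0 higher and 11 lower, and 2 higher and 0 lower. Under quantile normalization the first was 6 and 6, and the second 6 and 8. Again the shares of all genes under these scalings are not given here. The first count fell to 8 without NFRI 3236 39°C replicate 1 and to 6 without replicate 2, the second to 5 without NFRI 3155 39°C replicate 2, and the last to 2 without NFRI 3236 39°C replicate 2 and to 3 without NFRI 3155 39°C replicate 2. *ATG32* had scaled signals of 67.8 and 103 in NFRI 3155, 38.4 and 40.4 in NFRI 3236 and 22.4, 23.6 and 24.1 in S288C, so that the order of the strains at 30°C was kept, and S288C had 0.280-fold the level of NFRI 3155 (adjusted p = 5.7e-05). *ATG34* was lower in NFRI 3236 than in S288C (0.333-fold, adjusted p = 4.07e-04) and than in NFRI 3155 (0.283-fold, adjusted p = 4.66e-04). *ATG39* had 0.221-fold the level of S288C in NFRI 3236 (adjusted p = 1.87e-04), with 1 of 2 arrays of NFRI 3236 above background, so that the size of this fold rests in part on a signal not above background. *ATG15* had 0.231-fold the level of NFRI 3155 in S288C (adjusted p = 0.00211). The calls of *ATG39*, *ATG15* and *ATG32* named with S288C in this comparison held under all settings tried, and those of *ATG34* failed on unscaled intensities only.

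Genes around the *ATG* set were described by lists of textbook members. Their counts stand beside the shares of all genes given above, 15.7% higher and 23.5% lower in NFRI 3236, 25.2% and 28.2% in S288C, and 18.1% and 24.1% in NFRI 3155. Of the 4 genes of the phosphatidylinositol 3-kinase complexes, 0 rose in NFRI 3236, *VPS30* (also called *ATG6*) rose in S288C by 1.46-fold (adjusted p = 0.0194) and *VPS38* rose in NFRI 3155 by 1.73-fold (adjusted p = 0.0431). None fell. Of 8 genes for selective cargo and further receptors, 4 rose in NFRI 3236, 5 in S288C and 3 in NFRI 3155, and none fell. *APE1*, the aminopeptidase carried by Atg19, rose 9.97-fold, 21.2-fold and 6.18-fold in NFRI 3236, S288C and NFRI 3155 (adjusted p = 1.45e-06, 4.28e-09 and 5.39e-06). *AMS1*, the alpha-mannosidase carried by Atg19 and Atg34, rose 14.6-fold, 33.2-fold and 24.2-fold (adjusted p = 5.03e-06, 2.4e-08 and 7.94e-07), but the S288C fold is against 1 of 3 arrays above background at 30°C, so its size is not set against those of the other strains. *SNX4* (also called *ATG24*) rose 2.10-fold, 2.13-fold and 1.84-fold (adjusted p = 0.00373, 4.40e-04 and 0.0102).

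Of 8 vacuolar hydrolases and other degradative enzymes 5 rose in each strain, and 1, 1 and 0 fell in NFRI 3236, S288C and NFRI 3155. The largest rises were those of *NTH1*, the neutral trehalase, which acts in the cytosol rather than the vacuole, with 2.93-fold, 7.64-fold and 5.16-fold, and of *PRB1*, a vacuolar protease, with 2.72-fold, 4.33-fold and 2.61-fold. *APE3* fell in NFRI 3236 to 0.562-fold (adjusted p = 0.0215) and *PHO8*, the vacuolar alkaline phosphatase, in S288C to 0.398-fold (adjusted p = 0.0202). Of 16 genes of TORC1 and its regulators 1, 4 and 1 rose and 0, 1 and 1 fell, no higher a share than that of all genes in any strain or direction. *SCH9*, a kinase that TORC1 activates, had 0.653-fold, 0.564-fold and 0.460-fold (adjusted p = 0.0910, 0.00691 and 0.00480), and *LST8*, a TORC1 subunit, 1.64-fold, 1.68-fold and 1.80-fold (adjusted p = 0.0815, 0.0220 and 0.0384).

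Among 15 kinases and transcription regulators that act on *ATG* genes, 2, 3 and 3 rose and 3, 3 and 5 fell in NFRI 3236, S288C and NFRI 3155, shares near those of all genes. *RPH1*, a repressor of *ATG* genes, rose 2.38-fold in NFRI 3236 and 2.39-fold in NFRI 3155 (adjusted p = 0.00280 and 0.00229). *HSF1*, the heat shock factor, rose 1.69-fold, 2.06-fold and 1.97-fold (adjusted p = 0.00982, 1.44e-04 and 0.00166). *UME6*, a repressor of *ATG8*, had 0.441-fold, 0.226-fold and 0.460-fold and passed in S288C (adjusted p = 0.00873), where 2 of 3 arrays at 39°C were above background. *MSN4*, an activator of stress genes, had 0.288-fold, 0.666-fold and 0.380-fold and passed in NFRI 3236 and NFRI 3155 (adjusted p = 0.00364 and 0.0139). Of 15 genes for tethering and fusion of autophagosomes 12 were tested, and 1, 5 and 2 rose and 1, 0 and 1 fell. Only the 5 rises in S288C were a higher share than that of all genes. *VTI1*, a SNARE of vacuole fusion, rose 2.07-fold and 2.40-fold in NFRI 3236 and S288C (adjusted p = 0.0127 and 6.36e-04), and *VAM3*, its partner on the vacuole, fell to 0.538-fold in NFRI 3155 (adjusted p = 0.0326). In NFRI 3236, S288C and NFRI 3155 the median log2 change was 0.71, 0.69 and 1.22 for the hydrolase list, 0.58, 0.90 and 0.50 for the selective cargo list, and 0.77, 0.69 and 0.72 for the *ATG* genes. It was 0.02, 0.32 and 0.50 for the kinase complexes, and between -0.32 and 0.37 for the TORC1, regulator and fusion lists. Differences between lists were not tested.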

How the data were processed

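RNA was hybridised to 14 Affymetrix Yeast Genome arrays. The authors deposited a linear signal intensity per probe set, made with GCOS at default settings. The arrays also carry *S. pombe* probe sets. Of 10928 probe sets, 1746 were taken as such: those annotated to a single gene absent from the *S. cerevisiae* gene table. The background level rests on these 1746. A further 5498 probe sets were named as *S. cerevisiae*, and the rest were put in neither group. Each intensity was floored at 1, taken to log2 and shifted by the 75th percentile of its array, taken over both species' probe sets. Genes stayed in where all arrays of some group exceeded the 20th percentile of the array, and the brightest probe set stood for the 47 genes with several. Probe sets were named through the platform annotation and current RefSeq symbols. limma 3.58.1 in R 4.3.3 fitted 6 group means over all arrays with 8 residual degrees of freedom (eBayes, two-sided, Benjamini-Hochberg over 5443 genes, called under 0.05), and was tested on simulated data. The methods describe duplicates from independently grown cells; for the remaining S288C arrays the p-values measure the spread between arrays. The number of arrays limits the precision.

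Members and lists were chosen with earlier results of these data known. Every member is named. Values on each array are given for the 8 members with the largest heat changes, those whose response differed between strains, those with the 3 largest differences of each strain pair at 30°C, those not above background on some array, and *ATG8*, *ATG1* and *ATG9*. Each other list allowed up to 2 genes that rose and 2 that fell, by the mean change over the strains, and *VPS30*, *SNX4*, *HSF1* and *UME6* were named where this rule did not choose them. Other scalings, low-value filters, moderation, the methods' t-test, a replicate block and leaving out each array were tried. Leaving out an array of an NFRI strain left its group without a replicate. Leaving out an array of a group outside a comparison did not alter the fitted change. It altered only the shared spread and the adjustment. *ATG41* in NFRI 3236 kept a log2 change of 0.985 without each S288C array that ended its call.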

Additional observations from a re-analysis of the deposited data

Results flagged for a closer look

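The heat change of 6 *ATG* genes differed between strains by a test of the difference itself (limma, adjusted p under 0.05). On the log2 scale the change in NFRI 3236 minus that in S288C was 1.18 for *ATG12* (95% confidence interval 0.57 to 1.78) and -1.12 for *ATG31* (-1.79 to -0.45). The change in S288C minus that in NFRI 3155 was 2.01 for *ATG8* (0.85 to 3.17), -1.15 for *ATG10* (-1.90 to -0.39), -0.92 for *ATG5* (-1.55 to -0.30) and -2.84 for *ATG41* (-3.86 to -1.82). Each of the 6 rests in part on the untreated S288C arrays, on which the poly-A control RNAs were nearly all at background level, and the part of this in the differences was not tested. Of the 6, *ATG41* passed under every alternative run.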

How the results depend on the processing

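Of 54 heat calls over the 3 strains 35 held under every alternative that tested them, the t-test aside, as did 1 of 6 differences of heat changes, 3 of 23 strain differences at 30°C and 3 of 33 at 39°C. With each array left out in turn, 10 to 18 *ATG* genes rose and 0 to 1 fell in NFRI 3236, 16 to 20 rose and 2 to 4 fell in S288C, and 11 to 17 rose and 0 fell in NFRI 3155. Differences of heat changes then numbered 0 to 3 between NFRI 3236 and S288C, 1 to 4 between S288C and NFRI 3155 and 0 between NFRI 3236 and NFRI 3155. In the same order of pairs, 4 to 16, 4 to 11 and 1 to 3 genes differed at 30°C, and 6 to 15, 5 to 12 and 2 to 10 at 39°C. The count between NFRI 3236 and S288C was 0 without NFRI 3236 30°C replicate 2, NFRI 3236 39°C replicate 2 or S288C 30°C replicate 1, and 1 without NFRI 3236 30°C replicate 1 or any other S288C array. That between S288C and NFRI 3155 was 1 without S288C 30°C replicate 1 or either NFRI 3155 30°C array, and 2 without either NFRI 3236 30°C array, S288C 30°C replicate 2 or 3, or S288C 39°C replicate 3.

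On unscaled intensities 0 genes fell in S288C, the differences of heat changes numbered 0 between NFRI 3236 and S288C and 2 between S288C and NFRI 3155, 17 genes differed between S288C and NFRI 3155 at 30°C, and between the NFRI strains 1 differed at 30°C and 2 at 39°C. Their log2 differences at 30°C reversed to 0.084 for *ATG12* and 0.16 for *ATG19* (NFRI 3236 minus S288C), and to -0.39 for *ATG12* and -0.38 for *ATG23* (S288C minus NFRI 3155). At 39°C they reversed to 0.53 for *ATG22*, 0.042 for *ATG38*, 0.28 for *ATG23* and 0.036 for *ATG19* (NFRI 3236 minus S288C), and to -0.040 for *ATG23* (S288C minus NFRI 3155). With 16 added to each intensity 2 genes fell in NFRI 3236, 1 response differed between the NFRI strains, and the change of *ATG16* in NFRI 3236 reversed to -0.31. Scaling on *S. cerevisiae* probe sets left 1 difference of heat changes between NFRI 3236 and S288C. The cause was not tested. Shares of all genes are given only for the limma fit on scaled signals with all arrays. The counts under alternatives are therefore not set against such shares.

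Replicate numbers did not pair the arrays: deviations of same-numbered arrays correlated by -0.08 in NFRI 3236, 0.02 to 0.05 in S288C and -0.01 in NFRI 3155. With the replicate block 15, 17 and 14 genes rose in NFRI 3236, S288C and NFRI 3155, 0 responses differed between NFRI 3236 and S288C and 2 between S288C and NFRI 3155, and 8 genes differed between S288C and NFRI 3155 at 39°C. By the methods' t-test at an unadjusted p under 0.05, 13, 19 and 14 genes rose and 0, 3 and 0 fell, and after Benjamini-Hochberg adjustment 0, 17 and 0 rose and 0, 3 and 0 fell. The shares of all genes by this t-test are not given here, so these counts are not set against them. The 3 falls in S288C were those of *ATG5*, *ATG10* and *ATG12*, so that *ATG27* was not among them. Signals near background limit *ATG15*, *ATG16*, *ATG34*, *ATG38* and *ATG39*.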
